A study of Mus musculus with 6 samples.

Results

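The 47 genes described here encode the cyclins, kinases, checkpoint proteins, kinesins and spindle proteins of mitosis. They were chosen by name, and a row of the count table was found for each of the 47 among 23412 rows in all. RNA had been sequenced from germinal centre B cells, sorted as B220+, FAS+ and GL7+ from mouse spleen 10 days after immunization with sheep red blood cells. Control mice were Cg1-cre(+/-), and the other group was Cg1-cre(+/-);DAF-TM(fl/fl), also written R26-DAF-TM(fl/fl) and called DAF-TM here. The header of the count table writes the transgene as DAF-tg, with (+/+) for the controls, and Cg1-cre as (+/fl). Mice of both groups thus carried Cg1-cre and were immunized. Cg1-cre expresses Cre recombinase from the immunoglobulin gamma 1 heavy chain locus, which B cells switch on when they join the germinal centre response. DAF, decay accelerating factor, is a membrane inhibitor of complement encoded in the mouse by Cd55, and the cassette at the Rosa26 locus depends on Cre. The labels give no age, no sex and no number of mice behind a library, so p-values measure the spread between libraries, which may be technical.

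Mitosis is driven by the kinase Cdk1 bound to a B-type cyclin. Aurora and Polo-like kinases and kinesin motors build the spindle, and a checkpoint at the kinetochores holds back the anaphase-promoting complex until every chromosome is attached. That complex, a ubiquitin ligase, then marks cyclin B and other proteins for destruction, and the cell divides. The RNAs of these proteins are made mostly in G2 and M phase, from promoters that often hold CCAAT boxes and a cell cycle homology region read by the DREAM and MuvB-FOXM1 complexes. Germinal centre B cells are among the fastest dividing cells of the body, and most of their divisions take place in the dark zone, so these genes are abundant in them.

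Promoter windows from RefSeq (GRCm38.p6, the build of the counts) were found for 41 of the 47 genes, each 300 bases long with 250 before the start site. The letters TTTGAA, the core of the cell cycle homology region, were present on either strand in 29 of the 41 genes (70.7%), against 20.2% of 27025 genes with a window. CCAAT, searched on both strands too, was present in 33 (80.5%), against 41.1%, and both motifs were present in 26 (63.4%), against 8.97%. Neither motif contains the other. TTTGAA stood within 50 bases of the start in 25 of the 41 genes, or 61.0%, against 5.72% of all genes. Among 19 S phase genes with a window, 3 held TTTGAA (15.8%) and 13 held CCAAT (68.4%). The 100 bases before the start are printed for 3 genes that hold both motifs and for Mad2l1, which holds neither in its window. That window (66534971 to 66535270) ends before the GENCODE vM21 start of Mad2l1 at 66535390, so the bases next to that start were not searched. Capitals mark both motifs, on either strand. The positions are chr10:69352913-69353012 (minus strand) for Cdk1, chr19:37376282-37376381 (plus) for Kif11, chr11:99024190-99024289 (minus) for Top2a and chr6:66535121-66535220 (plus) for Mad2l1.
Cdk1: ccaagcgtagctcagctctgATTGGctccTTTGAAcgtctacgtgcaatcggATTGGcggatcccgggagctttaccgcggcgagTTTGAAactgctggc
Kif11: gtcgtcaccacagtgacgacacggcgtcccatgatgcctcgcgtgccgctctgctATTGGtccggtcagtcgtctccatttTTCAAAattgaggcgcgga
Top2a: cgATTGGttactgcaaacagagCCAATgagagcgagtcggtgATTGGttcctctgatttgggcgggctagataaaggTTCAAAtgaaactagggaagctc
Mad2l1: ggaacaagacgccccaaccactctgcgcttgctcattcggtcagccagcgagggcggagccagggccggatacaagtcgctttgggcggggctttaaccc

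The labels name 3 replicates in each group, but those numbered 2 and 3 of DAF-TM held equal counts in every row. They thus differed by less than sampling noise and entered as 1 sample. The comparison therefore had 3 control and 2 DAF-TM libraries, of 7257339 to 12783965 counts. Cd55 rose from 28.9 ± 5.47 CPM (SD, n = 3) to 720 ± 8.93 (SD, n = 2) (log2 fold change 4.63 ± 0.17, SE, edgeR adjusted p = 1.99e-110), higher in the group that carries the DAF transgene. CPM are counts divided by the normalised library size, on the usual per-megaread scale. The germinal centre gene S1pr2 stood at 556 to 634 CPM in the controls and at 530 and 474 in DAF-TM cells. DAF-TM library 1 held both Xist (297 CPM) and Y-linked RNA (289 CPM over 4 genes), the markers of female and of male cells. Control library 1 and DAF-TM library 2 held Xist with at most 1 Y-linked count, and control libraries 2 and 3 held Y-linked RNA at 708 and 478 CPM. Sex therefore differed within both groups, and its part in the results was not tested. The labels do not say whether DAF-TM library 1 came from pooled mice or holds RNA of another sample, and the second case would make its values a mixture in a group of 2 libraries. Counts of calls, of negative estimates and of genes without overlap are therefore also given without it.

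No change passed the test for any of the 47 mitosis and spindle genes. All 47 passed the filter on low counts, with 157 to 10566 counts a library, and 0 rose and 0 fell at an adjusted p under 0.05 (edgeR quasi-likelihood test, Benjamini-Hochberg over 18767 genes). Of all genes tested 0.41% were called, 0.373% higher and 0.0373% lower. At an unadjusted p under 0.05 there was 1 member, Ccnb1, of 47, or 2.13%, against 5.74% of all genes. The estimates ran from 0.773-fold for Ccnb1 to 1.25-fold for Kif14. The 95% intervals of all 47 lay between 0.617-fold and 1.63-fold, so a change of 2-fold in either direction lay outside each of them, and 42 of them lay within 1.5-fold of no change. These intervals are per gene, and they rest mainly on a spread pooled over genes (median prior degrees of freedom 1153, against 3 from the libraries). DESeq2 and limma-voom also called 0 members. At an unadjusted p under 0.05 they had 2 and 1 members, against 716 and 1077 of all 18767 genes. Without DAF-TM library 1, which leaves 1 library in that group, the members' median log2 fold change was -0.24.

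**Figure D1:**
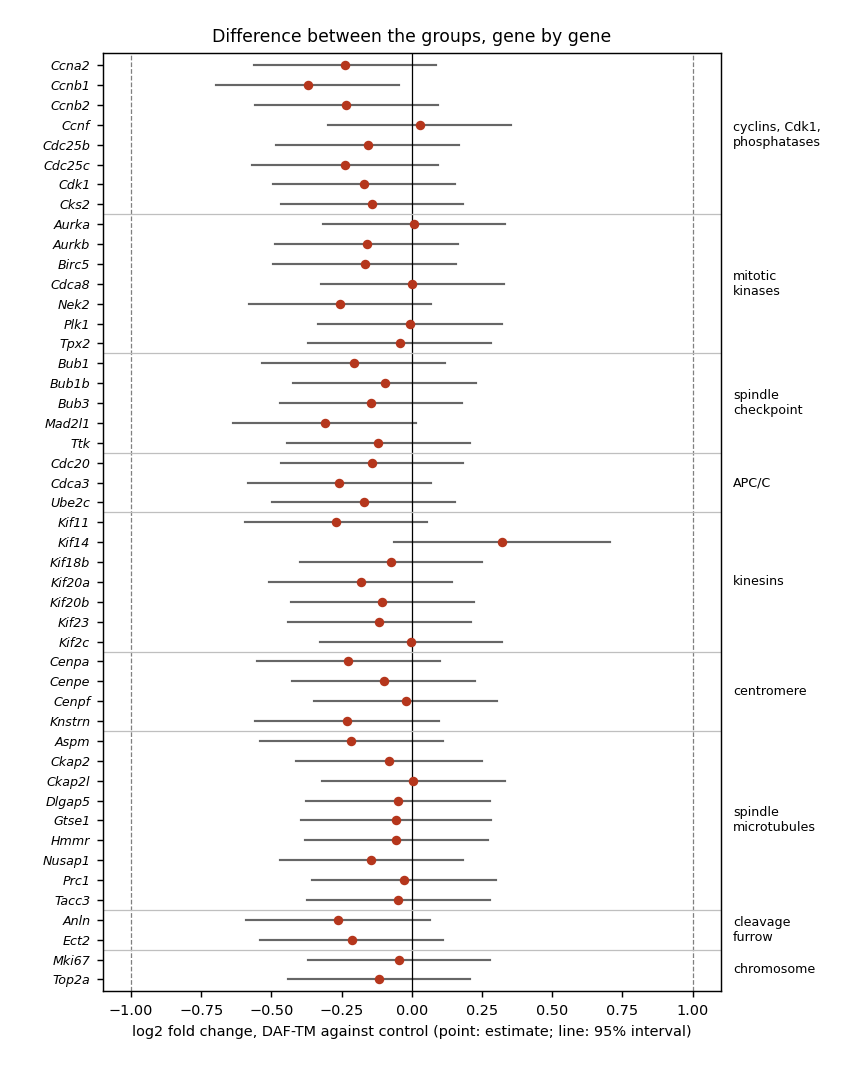
Log2 fold change of DAF-TM against control for each of the 47 genes, grouped by role, with the 95% interval of the edgeR fit as a line and dashed lines at a 2-fold change. Only the interval of Ccnb1 misses 0, and none reaches a dashed line.

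The cyclins and their kinase set the entry into mitosis. Ccnb1, cyclin B1 (chromosome 13, 100778650 to 100786570, GRCm38), stood at 324, 336 and 256 CPM in control libraries 1 to 3 and at 258 and 214 in DAF-TM libraries 1 and 2. The groups overlapped, since DAF-TM library 1 lay just above the lowest control. The log2 fold change was -0.37 ± 0.17 (SE; 95% interval -0.70 to -0.05; unadjusted p = 0.0269, edgeR adjusted p = 0.795). It was -0.52 without DAF-TM library 1 and -0.24 without DAF-TM library 2, and over all alternatives the adjusted p was at least 0.284. The mouse genome holds copies of Ccnb1 that match its transcript at 97.3% to 99.2% over 1287 to 1294 bases (Ccnb1-ps, Gm8416 and Gm12856). None of them has a row in the count table, and how reads that match both were placed is not stated.

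Ccnb2, cyclin B2, stood at 308, 345 and 273 CPM in the controls and at 259 and 267 in DAF-TM cells. Its libraries did not overlap, yet the difference of -0.23 ± 0.17 (log2, SE) did not pass (edgeR adjusted p = 0.945). Cdk1 itself stood at 289, 267 and 218 CPM in the controls, and the DAF-TM values of 238 and 221 lay inside that range. Its log2 fold change was -0.17, with a 95% interval from -0.50 to 0.16. Ccna2, cyclin A2, which acts from S phase to early mitosis, was at 479 to 580 CPM in the controls and at 482 and 417 in DAF-TM cells. Ccnf, which encodes the F-box protein cyclin F, was at 107 to 156 and at 152 and 121.

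The phosphatases Cdc25b and Cdc25c remove the inhibitory phosphates from Cdk1. Cdc25c was the same in both DAF-TM libraries, 54.5 CPM each, below the controls at 62.2, 72.9 and 57.4 (log2 fold change -0.24 ± 0.17, SE, edgeR adjusted p = 0.945). Cdc25b stood at 415 to 520 CPM in the controls and at 467 and 398 in DAF-TM cells. Cks2, a small subunit of Cdk complexes, was at 118 to 146 and at 118 and 126. Among these 8 genes of mitotic entry the median log2 fold change was -0.20, the highest being Ccnf at 0.03.

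The mitotic kinases showed some of the smallest differences. Plk1, the Polo-like kinase that acts at centrosomes and kinetochores, stood at 187, 123 and 164 CPM in the controls and at 180 and 135 in DAF-TM cells. Its means were 158 ± 32.1 (SD, n = 3) and 157 ± 31.8 (SD, n = 2). Aurka, the spindle pole kinase, stood at 117, 88.8 and 102 CPM in the controls and at 104 and 102 in DAF-TM cells. Both DAF-TM values lay inside the control range, and the log2 fold change was 0.0062, with an interval from -0.32 to 0.33. Tpx2, which activates Aurka on the spindle, stood at 196 to 231 CPM and at 227 and 179.

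Aurkb works at the centromere in the chromosomal passenger complex with survivin (Birc5) and borealin (Cdca8). Aurkb stood at 232, 194 and 203 CPM in the controls and at 201 and 174 in DAF-TM cells. Birc5 was at 202 to 246 CPM and at 214 and 197, and Cdca8 at 185 to 213 and at 215 and 179. Nek2, a kinase that separates centrosomes, was below the controls in both DAF-TM libraries, at 240 and 213 CPM against 244 to 289. Its log2 fold change of -0.26 ± 0.17 (SE) did not pass (edgeR adjusted p = 0.945). The 7 genes of this group had a median of -0.04.

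The spindle checkpoint genes Bub1, Bub1b, Bub3, Ttk and Mad2l1 all had negative estimates, from -0.31 for Mad2l1 to -0.10 for Bub1b. Mad2l1, the MAD2 protein that binds Cdc20 until chromosomes are attached (chromosome 6, where its promoter is printed above), stood at 296, 335 and 246 CPM in the controls. The DAF-TM libraries were close to each other, at 235 and 237, and below all controls. The log2 fold change was -0.31 ± 0.17 (SE; edgeR adjusted p = 0.895), and it was -0.31 without either DAF-TM library. Bub1b, the BUBR1 protein, behaved otherwise: DAF-TM library 1 at 346 CPM lay inside the control range of 293 to 357 and DAF-TM library 2 at 251 lay below it. Its estimate of -0.10 became -0.35 without DAF-TM library 1 and 0.11 without DAF-TM library 2. Bub1, a kinase of the kinetochore, had the same pattern, with controls at 160 to 186 and DAF-TM libraries at 174 and 125.

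The anaphase-promoting complex was represented by its activator Cdc20, its ubiquitin-conjugating enzyme Ube2c and Cdca3, a protein of mitotic entry. Cdc20 varied least among the controls of all 47 genes, at 350, 326 and 339 CPM (coefficient of variation 3.48%). DAF-TM libraries stood at 297 and 317 CPM, both below the controls, a log2 difference of -0.14 with an interval from -0.47 to 0.18. Cdca3 was also lower in both DAF-TM libraries, at 177 and 158 CPM against 188 to 208 (log2 fold change -0.26, edgeR adjusted p = 0.945). Ube2c stood at 271, 210 and 195 CPM in the controls and at 214 and 186 in DAF-TM cells. Cdc20 shares 53 exon bases with Elovl1 on the other strand and Ube2c 592 with Tnnc2. Among other members Kif20a shares 1271 with Cdc23, Prc1 911 with Rccd1 and Ccna2 510 with Exosc9, also on the other strand. Whether the counting used strand is not stated, so the values of these genes are uncertain.

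Kinesins push spindle poles apart, carry chromosomes and bundle the midzone. Kif11, the motor that separates the poles, stood at 461, 489 and 403 CPM in the controls and at 397 and 350 in DAF-TM cells, without overlap (log2 fold change -0.27 ± 0.17, SE, edgeR adjusted p = 0.944). Kif14, which acts in cytokinesis, was the only member with DAF-TM libraries above every control: 25.2 and 27.7 CPM against 22.7, 19.4 and 21.4. It had the lowest level of the 47, and the difference of 0.32 ± 0.20 (log2, SE) did not pass (edgeR adjusted p = 0.943). Kif14 rested on few reads, 157 to 229 counts in a control library against 279 and 327. The estimate stayed between 0.25 and 0.43 under every alternative run. Kif2c, a microtubule depolymerase, stood at 87.1 to 110 CPM and at 101 and 89.1 (interval -0.33 to 0.32), and Kif20a, Kif20b, Kif23 and Kif18b had estimates between -0.18 and -0.07.

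At the centromere, Cenpa, the histone H3 variant that marks it, stood at 155, 181 and 139 CPM in the controls and at 135 and 137 in DAF-TM cells. These did not overlap, and neither did Knstrn, a kinetochore protein, at 79.5 to 91.9 and at 68.4 and 76.6 (log2 fold changes -0.23 and -0.23, edgeR adjusted p = 0.945 for both). Cenpe, the kinetochore kinesin, stood at 311, 334 and 247 CPM against 296 and 260, and Cenpf at 155 to 195 against 183 and 169, all inside the control range. The spindle microtubule genes Hmmr, Nusap1, Prc1, Tacc3, Ckap2, Ckap2l, Dlgap5, Gtse1 and Aspm had estimates from -0.22 for Aspm to 0.0052 for Ckap2l, and none was free of overlap. Prc1, which bundles midzone microtubules, stood at 311, 257 and 227 CPM in the controls and at 295 and 224 in DAF-TM cells. Anln and Ect2, which organise the cleavage furrow, were at 74.8 to 87.0 and 143 to 186 CPM in the controls. Their DAF-TM values were 75.5 and 62.1 for Anln and 167 and 128 for Ect2.

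Mki67 and Top2a were the members with the most counts. Mki67, which coats mitotic chromosomes and is the usual marker of cycling cells, stood at 961, 897 and 773 CPM in the controls and at 942 and 758 in DAF-TM cells. The log2 fold change was -0.05, with an interval from -0.37 to 0.28. Top2a, the topoisomerase that untangles sister chromatids, stood at 873, 820 and 670 CPM and at 821 and 631 (log2 fold change -0.12, interval -0.44 to 0.21). In both genes DAF-TM library 1 lay inside the control range and DAF-TM library 2 below it. Per kilobase of exon the order of control means was led by Ccnb2 (202 CPM per kb), Cks2 (194) and Cdc20 (189), whose control ranges overlapped. Kif14 (2.37) was at the other end, below Cenpf (16.0) without overlap.

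**Figure D2:**
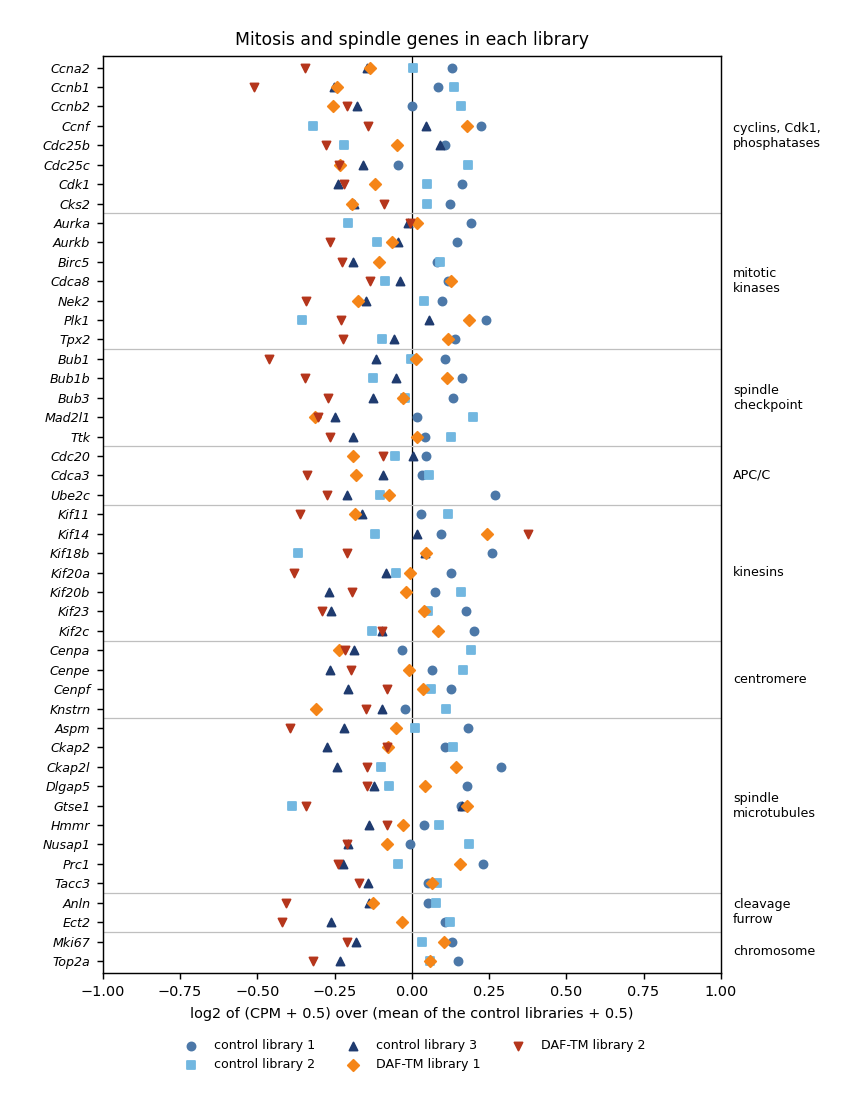
Log2 of the level in each library over the mean of the 3 control libraries, for each of the 47 genes grouped by role, with a pseudocount of 0.5 CPM. DAF-TM library 2 was the lowest of the 5 for 27 genes and control library 1 the highest for 26, while DAF-TM library 1 lay among the controls for 34.

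Estimates below 0 outnumbered those above, 42 to 5, and the median of the 47 was -0.14, against 0.03 over all genes tested. Among 7443 genes with a mean of at least 20 CPM, a level every member reached, 73.4% had negative estimates and the median was -0.09. The split of the members was 33 to 14 with upper-quartile factors (median -0.06, all genes 0.10, genes of at least 20 CPM -0.02). With library totals alone it was 28 to 19 (-0.03, all genes 0.14, genes of at least 20 CPM 0.0099). The members' median minus that of all genes lay between -0.19 and -0.12 under the scalings, filters, tools and GC correction run on the 5 libraries without a block, and was -0.27 with the replicate number as a block. It was -0.28 without DAF-TM library 1 (members' median -0.24, split 46 to 1) and -0.0089 without DAF-TM library 2 (-0.03, 27 to 20). Without control library 1 the split was 33 to 14, and the members' median of -0.07 was then above the -0.10 of genes of at least 20 CPM.

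DAF-TM library 2 was the lowest of the 5. The members' median log2 level, relative to the control mean, was 0.12, 0.04 and -0.15 in control libraries 1 to 3, -0.03 in DAF-TM library 1 and -0.23 in DAF-TM library 2. Over the 7443 genes of at least 20 CPM, DAF-TM library 2 stood at -0.18 and DAF-TM library 1 at -0.02. DAF-TM library 1 was above DAF-TM library 2 for 40 of the 47 genes. As a share of all counts, with no scaling factor, the members took 1.18%, 1.03% and 1.01% of the control libraries and 1.07% and 1.03% of the DAF-TM libraries, both inside the control range. The ratio of their counts to those of 24 S phase genes was 1.43, 1.45 and 1.29 in the controls and 1.38 and 1.40 in DAF-TM cells, again inside the range.

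Of the 47 genes, 9 had both DAF-TM libraries below all controls and 1 had both above. The 9 were Ccnb2, Cdc20, Cdc25c, Mad2l1, Kif11, Cenpa, Cdca3, Nek2 and Knstrn, or 19.1%. The share was 9.02% of all genes tested for lower and 11.3% for higher. Among 7443 genes of at least 20 CPM it was 17.9% for lower, so the members' share of lower genes was near that of their level. Both DAF-TM libraries were above all controls for 204 of those 7443 genes. The count of lower members was 32 without DAF-TM library 1 (68.1%, against 58.9% of genes of at least 20 CPM). It was 24 without control library 3 (51.1% against 34.3%) and 15 without control library 2 (31.9% against 24.0%). The members' share was below that of genes of their level without control library 1 (9 members, 19.1% against 23.7%) and without DAF-TM library 2 (10, 21.3% against 22.8%). For 12 members both DAF-TM libraries lay inside the control range (25.5%, against 24.1% of all genes tested and 23.1% of genes of at least 20 CPM). The range of the controls was wider than the difference of the means for 42 of the 47, and the coefficient of variation among controls had a median of 11.9%.

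**Figure D3:**
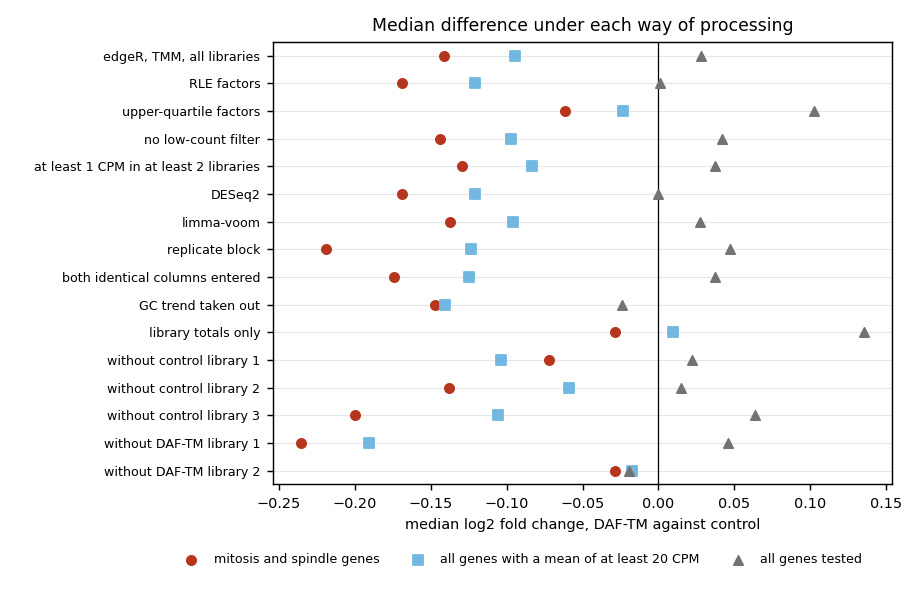
Median log2 fold change of DAF-TM against control for the 47 genes, for all genes of at least 20 CPM and for all genes tested, under each way of processing the counts. The 47 genes run from -0.24 without DAF-TM library 1 to -0.03 without DAF-TM library 2, where the 3 medians nearly meet.

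Levels of the members in control libraries 2 and 3 went with the base composition of their transcripts, in opposite directions. Some examples were chosen after their values were seen. Plk1, Kif18b, Gtse1 and Ccnf were lowest of the 5 libraries in control library 2, at 123, 87.6, 38.5 and 107 CPM, while Mad2l1 and Cenpa were highest there. The longest transcripts of Plk1, Kif18b, Gtse1 and Ccnf hold 53.5% to 56.0% G and C, and those of Mad2l1 and Cenpa 40.1% and 47.3%. The median of the 47 genes was 46.6%, so Cenpa was not among those low in GC. Over the 47 genes, GC content and the deviation from the mean of the 5 libraries had a Spearman rho of -0.60 in control library 2 and 0.64 in control library 3. It was 0.23 in control library 1, 0.18 in DAF-TM library 1 and 0.12 in DAF-TM library 2. Over 7404 genes of at least 20 CPM the values were -0.59 in control library 2 and 0.49 in control library 3. These are descriptions across genes of the same 5 libraries, and genes are not replicates. With the trend on GC taken out of each library, 0 members were called and the split was 46 to 1 (median -0.15). Genes of at least 20 CPM then had a median of -0.14, and 82.8% of their estimates were negative. This correction was added after the data were seen.

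**Figure D4:**
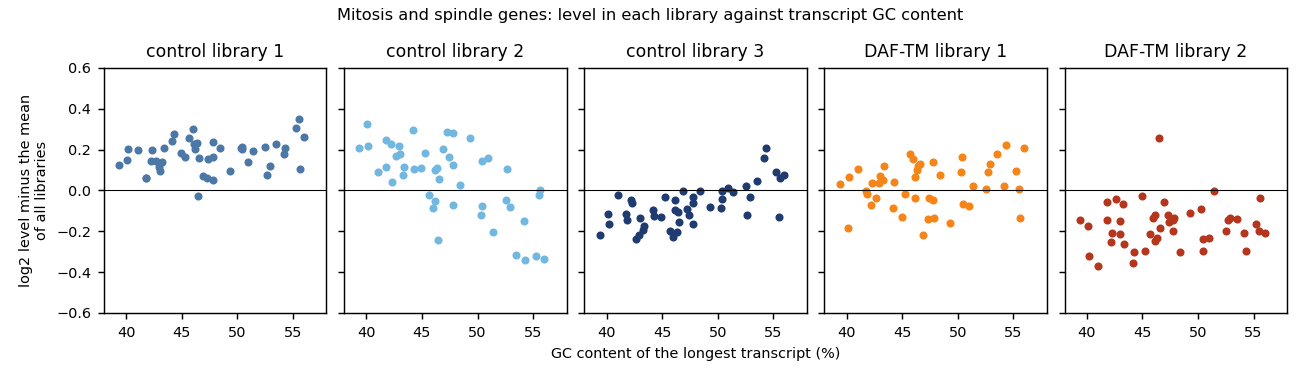
Log2 level of each of the 47 genes in a library, minus its mean over the 5 libraries, against the GC content of its longest transcript in percent, 1 panel for each library. The points fall with GC content in control library 2 (rho -0.60) and climb in control library 3 (0.64).

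A further 132 genes of the mitotic machinery were listed by complex, and 130 were tested: 0 rose and 0 fell. At an unadjusted p under 0.05 there were 5, or 3.85%, all lower, against 5.74% of all genes. Among genes of at least 20 CPM 5.62% had such a p, and 326 of those 418 genes were lower. The median of the 130 was -0.13 and 113 of the estimates were negative (86.9%). Among genes of at least 20 CPM 73.4% were negative and the median was -0.09. Without DAF-TM library 1, 123 of the 130 were negative, against 87.0% of genes of at least 20 CPM. Without DAF-TM library 2, 79 of the 130 were, against 53.3%. The lowest p belonged to Kif18a, a kinesin that limits chromosome movement, at 124, 155 and 107 CPM in the controls and 95.2 and 93.9 in DAF-TM cells. Its log2 fold change was -0.44 ± 0.17 (SE; unadjusted p = 0.00809, edgeR adjusted p = 0.543). The condensin subunit Ncapg2 followed, at 333 to 413 and at 317 and 241 CPM (-0.42, adjusted p = 0.668), then the cohesin subunit Stag2, at 476 to 589 and at 427 and 368 (-0.38, adjusted p = 0.785). Group medians lay between -0.23 for other kinesins and spindle genes and -0.09 for cohesin and separase. Foxm1, the transcription factor of G2 and M phase genes, stood at 80.3 to 102 CPM and at 102 and 81.8, and Mybl2 of the MuvB complex at 64.0 to 79.3 and at 72.8 and 67.5.

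Of the 24 S phase genes 0 rose and 0 fell, with a median of -0.11 and 22 negative estimates (91.7%, against 73.4% of genes of at least 20 CPM). There were 24 negative without DAF-TM library 1 and 10 without DAF-TM library 2, where 87.0% and 53.3% of genes of at least 20 CPM were. Many markers of other cells were higher in DAF-TM libraries, but the erythroid list was mixed. It summed to 148 and 148 CPM in DAF-TM libraries against 168 to 241 in the controls, and that sum was mostly Tfrc. Tfrc stood at 156 to 231 CPM in the controls and at 138 and 133 in DAF-TM cells. Of the 5 erythroid estimates 3 were positive and 2 negative, with a median of 0.28 (-0.40 without DAF-TM library 2). How many markers passed depended on the library left out, control or DAF-TM. Of 10 natural killer markers 8 rose and none fell, and the list summed to 36.1 to 53.7 CPM in the controls against 144 CPM in DAF-TM library 1 and 86.4 CPM in DAF-TM library 2. Without DAF-TM library 1 none of the 10 was called, although all 10 estimates were positive (median 1.18), and without control library 1 or 3 there were 3 or 5 called. Of 9 macrophage markers 4 rose (summed level 38.3 to 42.1 against 95.8 and 66.5 CPM), 2 without control library 3 and none without DAF-TM library 1, where 8 of 9 estimates were positive. Of 10 T cell markers 2 rose, Cd3d and Tcf7, and none or 1 did when any 1 library was left out. The summed level of the T cell list was mostly Lck, at 249 to 285 CPM in the controls and 213 and 224 in DAF-TM cells, and the other 9 summed to 22.1 to 30.0 against 53.8 and 52.8 CPM. Of 7 naive B cell genes 5 rose, and 1 of these was Cd55, the gene of the transgene's product. The other 6 summed to 672 to 946 CPM in the controls and to 993 and 720 in DAF-TM cells, with 4 called, or 2 without DAF-TM library 1. Of 5 plasma cell genes Prdm1 rose (summed level 414 to 470 against 610 and 389 CPM) and of 8 light zone genes Ccnd2 rose. Neither list held a call without control library 1 or without control library 3. The median log2 fold changes of the plasma cell and light zone lists were -0.18 and -0.23 without DAF-TM library 1. None of 11 germinal centre B, 6 dark zone and 5 erythroid genes passed, with or without that library. The dark zone list holds Ccnb1 and Mki67. No tested marker was at 0 in every library. The 47 members summed to 10034 to 12023 CPM in the controls and to 10845 and 9289 in DAF-TM cells. The part of these cells in the members' values was not tested, and in bulk samples fewer dividing cells and less RNA per dividing cell cannot be told apart.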

How the data were processed

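The authors deposited a table of whole-number read counts, 1 row per symbol, unnormalized and aligned to mm10 per the file header. The submitters' processing notes list HISAT2, featureCounts and bcl2fastq with no version. Which annotation and strand setting were used, and how reads matching more than 1 gene were treated, is not given in the sources used here. Of the 47 members 16 share exon bases with another gene of GENCODE vM21, and Ccnb1, Cks2, Mad2l1 and Mki67 have a copy of at least 95% identity over 200 bases or more, so their counts are less certain.

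All genes were fitted together with edgeR 4.0.16 (R 4.3.3, limma 3.58.1): TMM factors, filterByExpr by group, robust glmQLFit and a two-sided glmQLFTest, Benjamini-Hochberg adjusted over 18767 genes with a threshold of 0.05. DESeq2 1.42.0 was an alternative. CPM are TMM-normalised. Standard errors and 95% intervals come from the weights of that fit. The fit was also run on simulated independent libraries with the spread fitted here. These held no mixed library and no difference by sex or GC content, so they cannot show how the intervals hold under those. Named members were 17 fixed for their roles, the 5 highest and 5 lowest changes, the 5 of lowest p and those whose libraries did not overlap. Others are given to complete a group. The members and lists were chosen with earlier results of these data known. Lengths and GC content are from GENCODE vM21 (GRCm38).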

Additional observations from a re-analysis of the deposited data

How the results depend on the processing

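No member was called under any of 15 alternatives, 13 planned and 2 added after seeing the data (the GC correction and library totals alone), and no other mitotic gene either. The lowest adjusted p of any member was 0.284, with both identical columns entered. The fit with the replicate number as a block had 0 members called (median -0.22) and 61 genes in all. Same-numbered libraries did not deviate together from their group means (r = -0.29 and -0.0026 over 7443 genes). With 2 DAF-TM libraries these deviations mirror each other, so the correlations cannot decide whether the numbers pair the libraries. The members' median moved by less than the spread between controls throughout, from -0.24 to -0.03 when 1 library was left out. Leaving out a DAF-TM library assumes that the lone one varies like the controls.

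Over all genes, 77 were called. The count was 39 with upper-quartile factors, 32 with DESeq2, 51 with limma-voom, 11 with both identical columns and 42 with library totals. It ran from 14 (without DAF-TM library 1) to 118 (without DAF-TM library 2) when 1 library was left out. The cause was not tested. The marker lists with 1 library left out, and without Cd55 or Lck, were added after seeing the data.

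Of 27 named members 16 kept their direction throughout and 11 turned at least once. With RLE factors Aurka stood at -0.020, Ckap2l at -0.019 and Cdca8 at -0.023, and with DESeq2 at -0.020, -0.019 and -0.023. Upper-quartile factors gave Plk1 0.052, Tpx2 0.020, Prc1 0.036 and Mki67 0.021. Library totals gave Plk1 0.083, Tpx2 0.053, Cenpe 0.0065, Prc1 0.069 and Mki67 0.055. Cdca8 was -0.00070 with no filter and Plk1 0.0023 with a minimum of 1 CPM in 2 libraries. With limma-voom Plk1 was 0.0015 and Cdca8 -0.0025. The block gave Plk1 0.037, Ckap2l -0.096 and Cdca8 -0.020. Both identical columns gave Ccnf -0.028, Ckap2l -0.045 and Cdca8 -0.045, and the GC correction Aurka -0.075, Ccnf -0.050, Ckap2l -0.017 and Cdca8 -0.082. Leaving out 1 library gave ranges of -0.24 to 0.19 for Plk1, -0.091 to 0.11 for Aurka, -0.35 to 0.11 for Bub1b, -0.23 to 0.12 for Tpx2, -0.33 to 0.059 for Top2a, -0.25 to 0.16 for Prc1 and -0.22 to 0.10 for Mki67. They were -0.15 to 0.18 for Ccnf, -0.15 to 0.18 for Ckap2l and -0.14 to 0.13 for Cdca8.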
